A study of Mus musculus with 27 samples.

Results

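The first 2 days of induced neuron (iN) reprogramming were followed in the 6 libraries labelled Per2-/-, 3 from day 0 and 3 from day 2, out of 27 bulk RNA-seq libraries in the series. The 6 libraries were chosen by their labels alone. The starting cells were mouse embryonic fibroblasts (MEFs), a primary culture grown from embryo bodies after the head and the heart were taken away, with several embryos pooled in a dish and their sex not determined. WT and Per1-/- cells, with 3 libraries on each of the same days, served for comparison. The Per2-/- cells came from the mouse strain carrying the Per2 tm1Drw allele on a B6.129 background.

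In the study's protocol, MEFs received lentiviruses for reprogramming factors, Brn2 and Myt1l among them, before day 0. The factors were under a doxycycline-responsive promoter, and a virus for the activator rtTA was added with them. The study does not state separately that the day 0 RNA came from transduced cultures. On day 0, medium with fetal bovine serum was replaced by serum-free N3 medium containing insulin, transferrin, selenium, progesterone, putrescine, basic FGF and doxycycline. The effects of factor induction, serum removal, the new medium components and any difference in virus exposure therefore cannot be told apart in a comparison of day 2 with day 0. The labels give the cell type of all libraries as induced neurons, and day 0 was sampled before reprogramming.

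Notch ligands on a differentiating neuron activate Notch receptors on its neighbours, which then express repressors of neuronal genes. BRN2, encoded by Pou3f2, is a POU domain factor, and MYT1L is a zinc finger repressor of non-neuronal genes. Fibroblasts in serum carry actin stress fibers and express contractile, matrix and growth factor response genes through serum response factor (SRF), the YAP coactivator and TGF-beta signaling. PER2 is a repressor in the circadian clock loop.

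Levels are given as FPKM, a fragment count divided by the exon length of the gene and by the sequencing depth, for each replicate in the order 1, 2 and 3. A change is the difference of day 2 minus day 0 on the scale of log2(FPKM + 0.1), which understates the change of genes with low values. A gene was called when its change was at least 0.58 in size with an adjusted p of 0.05 or less by limma (Benjamini-Hochberg), the fold threshold stated in the study's methods. The 6 libraries held 17741879 to 20989418 fragments on genes, within the range of 15815013 to 24264097 over all 27. The labels call the replicates biological, but the sources used here do not say whether they came from separate embryo pools, so p-values measure only the spread between these samples.

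Per2 itself (chr1:91415982-91459324, minus strand, GRCm38) was measured first, because it is the gene the label names. Its level was 1.87, 2.00 and 1.90 FPKM on day 0 and 2.77, 2.97 and 2.75 FPKM on day 2 in the libraries labelled Per2-/-. In WT it was 0.906, 0.957 and 0.817 FPKM on day 0 and 1.55, 1.78 and 1.39 FPKM on day 2. All 3 libraries labelled Per2-/- lay above all 3 WT libraries on each day, with a day 0 difference of 1.03 on the log2 scale (adjusted p = 0.0011), and Per2 was the only gene called between these groups on day 0. The transcript thus went against the label, and the libraries are called by their label throughout. The values cover the whole gene, so they do not show whether the targeted stretch was present in the transcripts or whether protein was made. The study itself reports loss of PER2 protein in its Per2-/- MEFs by western blot. Within the label, Per2 increased by 0.53 from day 0 to day 2 (SE 0.13, adjusted p = 0.0013), which was below the fold threshold but passed it on the TPM scale described below. In Per1-/- cells, Per2 was 1.13, 1.02 and 1.25 FPKM on day 0 and 2.02, 1.85 and 1.80 FPKM on day 2.

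Of 14932 genes tested, 2792 (18.7%) were called higher and 2508 (16.8%) lower on day 2, together 35.5%. The median change was -0.0067. In 4482 genes (30.0%) all 3 day 2 libraries lay above all 3 day 0 libraries, and in 4701 (31.5%) they lay below. Changes of at least 4 in size on the log2 scale were found in 105 genes called higher and 39 called lower. The split depended on the scaling. When FPKM were rescaled to a common sum in each library (TPM), the median change became 0.3125, 4630 genes were called higher and 1266 lower, and the share of calls that were higher went from 52.7% to 78.5%. The FPKM of all genes summed to 333295, 350634 and 334424 on day 0 and to 278885, 269031 and 261810 on day 2. The counts of a list on the rescaled values are therefore given beside those on FPKM where they differ. Such counts are to be read against those of all 14932 genes as TPM, 4630 higher and 1266 lower with a median of 0.3125.

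**Figure D1:**
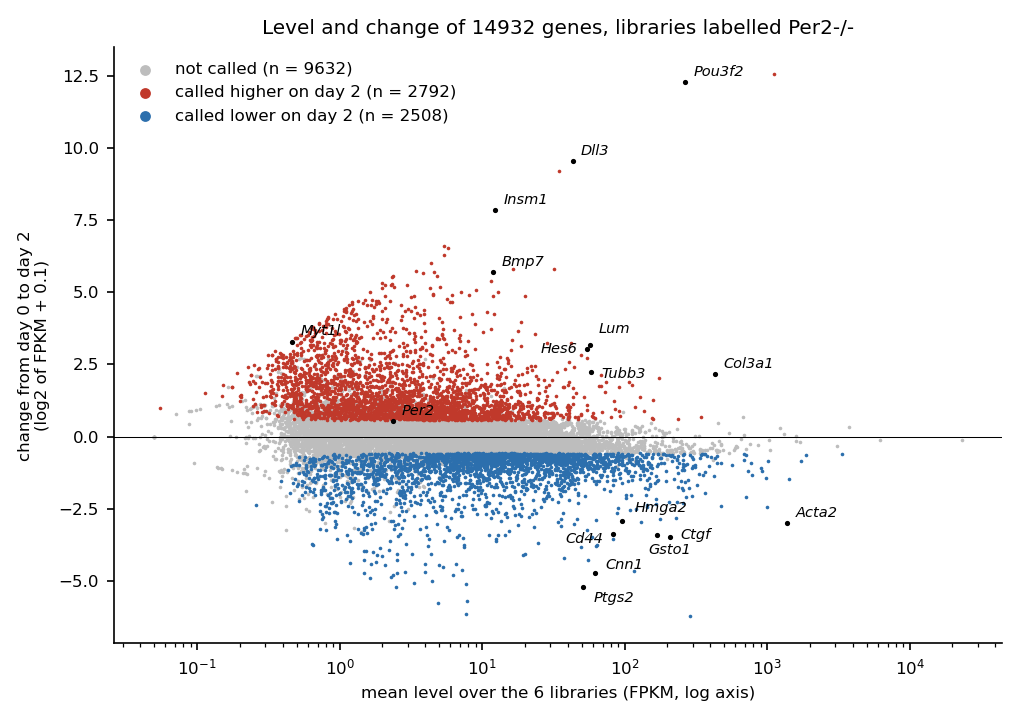
Each point is 1 of 14932 genes in the libraries labelled Per2-/-, with the mean FPKM over the 6 libraries on a log axis (x) and the log2 change from day 0 to day 2 (y). Red marks the 2792 genes called higher, blue the 2508 called lower, and named genes are black. Pou3f2 and Dll3 stood far up at 12.29 and 9.56, and Ptgs2 and Cnn1 lay at -5.22 and -4.73.

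Transcripts of the delivered factors appeared between the 2 days. Pou3f2 had no fragment on day 0 and 340, 770 and 484 FPKM on day 2. Its 174465 fragments made it at least 53000-fold higher, taking 3 fragments over the 3 day 0 libraries as the floor. All 3 day 2 values stood far above day 0, and replicate 2 was highest. Myt1l was much lower, at 0, 0.00378 and 0.00829 FPKM on day 0 and 0.976, 1.00 and 0.794 FPKM on day 2. That was 3 against 763 fragments, a depth-scaled ratio of 232 with a 95% exact interval of 79.0 to 1130 for counting error only. The study's methods name a plasmid for Myt1, and Myt1, a paralog of Myt1l, had no fragment on day 0 and 1.83, 1.90 and 1.18 FPKM on day 2, at least 210-fold higher. Fragments of viral and of endogenous origin cannot be told apart in these values.

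Early neuronal and Notch pathway genes were among the most increased. Of 25 tested members, 17 were called higher and 4 lower, with a median change of 1.86 (2.15 as TPM, with 19 higher and 3 lower). The ligand gene Dll3 had 0, 0.0372 and 0 FPKM on day 0 and 65.3, 118 and 76.3 FPKM on day 2. In fragments this was 2 against 14503, a depth-scaled ratio of 6610 (95% exact interval 1830 to 54600). All day 2 libraries stood far above day 0, with replicate 2 again highest. Dll1, the activating Notch ligand, went from 0.0404, 0.113 and 0.344 FPKM to 6.48, 10.7 and 8.15 FPKM (change 5.14, SE 0.38, adjusted p = 8.4e-10). Insm1, a zinc finger factor of neuronal progenitors, had 1 fragment on day 0 and reached 19.98, 31.8 and 22.3 FPKM on day 2 (adjusted p = 3.7e-14), where it had 4500 fragments, a depth-scaled ratio of 4100 (95% exact interval 736 to 162000). Hes6, an antagonist of HES1, was already expressed at 11.8, 13.5 and 9.99 FPKM on day 0 and reached 104, 94.1 and 91.6 FPKM on day 2 (change 3.04, SE 0.16, adjusted p = 1.1e-11). The groups did not overlap for any of these genes. Btbd17, a further early gene of the same list, had 2 fragments on day 0 and 776 on day 2, a ratio of 354 (95% exact interval 97.6 to 2930).

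Within the same pathway the receiving side moved in both directions. The following members were named after their values were seen. Among receptor genes, Notch3 was called higher with a change of 1.61, whereas the change was 0.33 for Notch1 and 0.05 for Notch2, which were not called. Of the Notch targets, Hey1 and Heyl were called higher at 1.86 and 2.66, and Hes1 was called lower at -1.22. Rbpj, the DNA-binding partner of the cleaved receptors, was called lower at -0.72.

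Stretches upstream of the start sites of 4 of these genes are shown because they hold the E-box CAGCTG, a pattern bound by basic helix-loop-helix factors that is its own reverse complement. The capitals mark this E-box, and each stretch is from RefSeq on GRCm38.p6, read 5′ to 3′ on the strand of the gene.
Dll3 (chr7:28301786-28301812, minus strand): tataagactccggcatccagCAGCTGc
Dll1 (chr17:15377039-15377084, minus strand): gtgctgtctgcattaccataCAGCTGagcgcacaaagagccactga
Hes6 (chr1:91414184-91414229, minus strand): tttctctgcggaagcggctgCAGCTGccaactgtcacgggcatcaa
Cbfa2t3 (chr8:122699188-122699233, minus strand): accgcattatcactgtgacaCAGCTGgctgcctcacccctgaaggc

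The E-box lay 2 to 7 bases before the start in Dll3 and 127 to 132 bases before it in Dll1. Cbfa2t3, a corepressor gene of the same list that was named after its values were seen, was called higher with a change of 4.22. RefSeq starts were found for 20 of the 25 list members. Of their 28 starts, 12 (42.9%) in 9 genes held CAGCTG within the 250 bases before the start, on either strand. The share was 13.0% among all 32851 starts of the RefSeq table. A match of letters is a description and not a binding site, and the list was chosen by hand. Of the symbols of all tested genes, only 69.3% had a start in the table. CAGCTG was held by 12.2% of their starts. The share was 15.7% among starts of genes called higher and 11.5% among those of genes called lower. These shares cover only genes with a start and are descriptions.

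Neuronal regulators, cytoskeleton and release genes increased as groups. Among neuronal transcription factors, 16 of 24 were called higher and 3 lower (median change 1.48, and 16 and 2 as TPM). Prox1, a homeobox factor of differentiating neurons, went from 0.129, 0.12 and 0.118 FPKM to 2.91, 3.93 and 2.85 FPKM (change 3.89, SE 0.24, adjusted p = 9.8e-11). Pou3f1, a POU factor related to Pou3f2, had no fragment on day 0 and 2.74, 2.57 and 2.07 FPKM on day 2, at least 170-fold higher. St18, the remaining MYT family member, was called higher with a change of 3.68. Both groups of libraries were apart for each of these 3 genes.

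Among neuronal cytoskeleton and RNA-binding proteins, 24 of 47 were called higher and 3 lower (median 0.76, and 31 higher with none lower as TPM). Tubb3, which encodes βIII tubulin, was 18.5, 27.3 and 15.9 FPKM on day 0 and 91.7, 101 and 92.5 FPKM on day 2 (change 2.24, SE 0.23, adjusted p = 5.3e-08). Map2, a dendritic microtubule protein gene, was 1.04, 0.329 and 0.967 FPKM on day 0 and 5.84, 6.85 and 5.39 FPKM on day 2 (change 2.92, SE 0.35, adjusted p = 5.4e-07). Dcx, a microtubule gene of migrating neurons, rose from 0.0135, 0.0042 and 0.0184 FPKM to 1.41, 1.86 and 1.31 FPKM (change 3.85, SE 0.30). Day 2 exceeded day 0 in every pair of libraries for all 3 genes. Mapt, encoding Tau, was 0.158, 0.148 and 0.0617 FPKM on day 0 and 0.208, 0.313 and 0.156 FPKM on day 2, not called except as TPM, with overlapping groups.

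Vesicle, release and granin genes had the highest share of increases among the neuronal groups, with 24 of 31 called higher and 1 lower (median 1.74, and 25 and 1 as TPM). Syt1, the calcium sensor of synaptic vesicles, was 0.0545, 0.0445 and 0.0557 FPKM on day 0 and 6.49, 8.78 and 7.54 FPKM on day 2 (change 5.66, SE 0.21, adjusted p = 4.1e-14). Pclo, an active zone scaffold, changed by 5.26, and the granins and partners Chgb and Scg5 by 4.75 and 4.24. Of neuronal ion channels and receptors, 26 of 35 were called higher and 1 lower (median 1.54). Glrb, the beta subunit of the glycine receptor, went from 1.96, 1.08 and 1.53 FPKM to 15.2, 27.7 and 21.4 FPKM (change 3.72, SE 0.34, adjusted p = 1.5e-08). Htr3a, the serotonin-gated channel, was 0.136, 0.433 and 0.0558 FPKM on day 0 and 6.98, 4.51 and 5.12 FPKM on day 2. Each gene was higher in all 3 day 2 libraries, and the order of replicates on day 2 differed between Glrb and Htr3a.

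Axon guidance genes showed 27 of 58 called higher and 6 lower (median 0.52), and 34 and 4 as TPM (median 0.85). The receptors Dcc, Epha5 and Robo2 changed by 3.30 to 3.79, and the transmembrane semaphorin Sema6b by 3.40. Among REST and chromatin genes, 10 of 35 were called higher and 2 lower, and 19 and 2 as TPM. Rest, the repressor of neuronal genes in non-neuronal cells, was 11.8, 14.3 and 14.3 FPKM on day 0 and 13.3, 12.7 and 12.5 FPKM on day 2 and was not called. The chromatin remodeler Chd7 was higher (change 2.31), and the deacetylase Hdac11 too (change 1.91). The 2 called lower were the high mobility group genes Hmga1 (change -2.28) and Hmga2 (195, 149 and 160 FPKM to 37.7, 12.1 and 23.6 FPKM, change -2.92).

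The label of neurons was checked against mature markers. On day 2, Rbfox3, encoding NeuN, was at 0.0347, 0.00882 and 0.00877 FPKM from 6 fragments in all. Syp, encoding synaptophysin, was 0.0388, 0.335 and 0.225 FPKM, and the GABA synthesis gene Gad1 had no fragment in any of the 6 libraries. Slc17a7, a vesicular glutamate transporter gene, was 0.731, 0.542 and 0.502 FPKM on day 2 against 0.0211, 0.108 and 0.0646 FPKM on day 0. Slc17a6, another such transporter gene, was 0.00936, 0.0095 and 0.18 FPKM on day 2 against 0.0316, 0.206 and 0.108 FPKM on day 0, with overlapping groups. Col1a1, the fibroblast collagen, stayed among the abundant transcripts with 982, 1339 and 1044 FPKM on day 0 and 1450, 1311 and 1301 FPKM on day 2 (change 0.28, adjusted p = 0.28, called higher only as TPM). The label induced neurons is thus not borne out by these markers on day 0, and on day 2 early neuronal genes stood beside a fibroblast collagen level that overlapped day 0.

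Some muscle genes increased as well. Of 25 tested skeletal muscle genes, 8 were called higher and 3 lower (median 0.93, and 13 higher with 3 lower as TPM). Tnnt2, a troponin of heart and embryonic muscle, was 0.571, 0.438 and 0.599 FPKM on day 0 and 8.07, 12.02 and 9.72 FPKM on day 2 (change 3.97, SE 0.47, adjusted p = 5.0e-07). Mymx, a fusion peptide of myoblasts, changed by 3.21. In contrast, Myog, the myogenic factor, was 0.494, 0.994 and 0.932 FPKM on day 0 and 1.11, 0.309 and 0.751 FPKM on day 2, with overlapping groups and no call. Acta1, the skeletal actin gene, was called lower, from 282, 155 and 234 FPKM to 12.1, 5.54 and 9.21 FPKM, and it made up most of the fall in the summed level of the list from between 262 and 403 FPKM to between 105 and 128 FPKM.

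**Figure D2:**
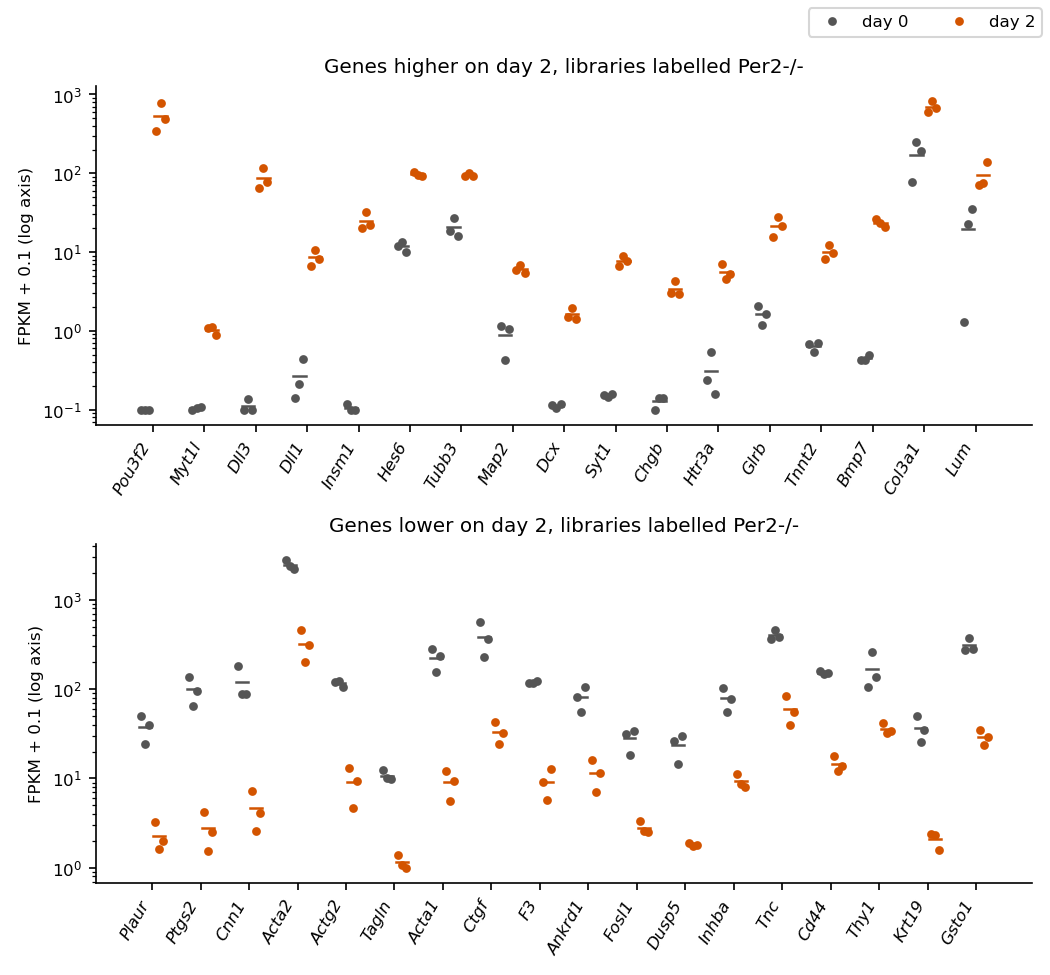
FPKM + 0.1 of selected genes on a log axis in each of the 3 day 0 (grey) and 3 day 2 (orange) libraries labelled Per2-/-, with short lines at the means. The upper panel holds genes that were higher on day 2 and the lower panel genes that were lower. Dots of the 2 days do not overlap for any gene shown, and Lum and Col3a1 had their lowest value in day 0 replicate 1.

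The contractile genes controlled by SRF had the most uniform decrease. Of 29 members, 26 were called lower and none higher (median change -1.54, and 23 lower with 1 higher as TPM). Acta2, smooth muscle actin, was 2804, 2354 and 2210 FPKM on day 0 and 454, 201.2 and 314 FPKM on day 2 (change -2.997, SE 0.36, adjusted p = 6.5e-07). Cnn1, calponin, was 180, 89.0 and 88.5 FPKM on day 0 and 7.11, 2.46 and 4.03 FPKM on day 2 (change -4.73, SE 0.46, adjusted p = 3.6e-08). Actg2, enteric smooth muscle actin, and Myh11, smooth muscle myosin, changed by -3.80 each. Every day 2 library was below every day 0 library for the 4 genes, and day 2 replicate 2 was lowest for each. Tagln, another smooth muscle gene, was 12.4, 9.90 and 9.73 FPKM on day 0 and 1.30, 0.981 and 0.899 FPKM on day 2, but 62.4% of its exon bases lie in exons of a gene on the opposite strand, and in these unstranded libraries its level is uncertain.

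Upstream stretches of 4 genes of this list are shown because SRF binds the CArG box, marked here in capitals. They were read from RefSeq on GRCm38.p6, 5′ to 3′ on the strand of each gene.
Actg1 (chr11:120348556-120348605, minus strand): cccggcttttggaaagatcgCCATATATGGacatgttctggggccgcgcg
Vcl (chr14:20929151-20929200, plus strand): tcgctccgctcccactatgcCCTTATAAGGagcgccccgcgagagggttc
Cnn2 (chr10:79988524-79988573, plus strand): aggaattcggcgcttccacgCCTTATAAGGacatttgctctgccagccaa
Srf (chr17:46556215-46556264, minus strand): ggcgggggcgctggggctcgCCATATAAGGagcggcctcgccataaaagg

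The box lay 81 to 90 bases before the start in Actg1 and 47 to 56 bases before it in Cnn2. Starts were found for 24 of the 29 members. Of their 28 starts, 9 (32.1%) in 8 genes held a CArG box in the 250 bases before the start. The share was 1.47% (482 of 32851) over the whole RefSeq table. The list was chosen for control by SRF, which binds this box, so a high share was built in and is no result. The 4 genes, named here for their boxes after their values were seen, were each called lower, with changes of -1.44 for the cytoplasmic actin gene Actg1, -1.33 for the vinculin gene Vcl, -1.54 for the calponin gene Cnn2 and -0.69 for Srf itself.

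TGF-beta and YAP target genes were also called lower more often than higher. Of 24 TGF-beta ligands and targets, 13 were called lower and 1 higher (median -0.73, and 10 and 2 as TPM), and of 20 YAP targets 12 were lower and none higher (median -0.74, and 9 lower as TPM). Inhba, the activin A subunit, was 103, 55.7 and 77.0 FPKM on day 0 and 11.1, 8.48 and 8.02 FPKM on day 2 (change -3.05). Ctgf, a matricellular target of both pathways, was 569, 230 and 359 FPKM on day 0 and 42.8, 24.4 and 31.8 FPKM on day 2 (change -3.48, SE 0.40, adjusted p = 3.0e-07). For both genes replicate 1 was highest and replicate 2 lowest on day 0, and even the lowest day 0 value lay well above day 2. F3, tissue factor, fell from 116, 116 and 124 FPKM to 8.95, 5.66 and 12.5 FPKM (change -3.77). Ankrd1 and Thbs1 changed by -2.85 and -2.44, and the inhibitory Smad7 by -1.42.

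Growth factor response genes had more decreases than increases. Of 28 immediate early genes, 15 were called lower and 2 higher (median -0.75), and 11 and 3 as TPM. Nr4a1, an orphan nuclear receptor, was 22.9, 17.1 and 20.2 FPKM on day 0 and 3.08, 3.33 and 3.27 FPKM on day 2 (change -2.59, SE 0.20, adjusted p = 1.1e-09). Myc was 25.6, 17.0 and 24.2 FPKM on day 0 and 7.77, 6.59 and 7.196 FPKM on day 2 (change -1.60). Egr1 went the other way without a call, at 46.6, 20.04 and 16.1 FPKM on day 0 and 38.3, 32.0 and 29.4 FPKM on day 2. Fos was called higher (change 1.48), but not with a pseudocount of 1 or in several fits that left out 1 library. Fosl1 changed by -3.29, but 57.2% of its exon bases lie in exons of Ccdc85b on the opposite strand. Feedback regulators of FGF and MAP kinase signaling had 11 of 23 called lower and 1 higher, and 9 and 4 as TPM, with changes of -3.62 for the phosphatase Dusp5, -2.77 for Dusp4 and -2.03 for the ETS factor Etv4.

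The inflammatory prostaglandin synthase Ptgs2 was 137, 64.6 and 95.5 FPKM on day 0 and 4.15, 1.46 and 2.41 FPKM on day 2 (change -5.22, SE 0.39, adjusted p = 1.0e-09). In its list of cytokines and chemokines, 11 of 28 were called lower and 2 higher (median -0.90, and 10 and 2 as TPM), Ccl2 among the lower ones (40.5, 35.3 and 58.6 FPKM to 13.1, 6.81 and 8.61 FPKM). Tnf was 0.624, 0.421 and 1.205 FPKM on day 0 and 1.08, 0.595 and 0.654 FPKM on day 2, with overlapping groups. Interferon-stimulated genes moved up, with 22 of 40 called higher and none lower (median 0.96, and 29 higher as TPM). Isg15, a ubiquitin-like modifier, was 3.08, 9.19 and 3.15 FPKM on day 0 and 15.3, 30.6 and 25.9 FPKM on day 2 (change 2.33, SE 0.38, adjusted p = 2.9e-05), with replicate 2 highest on both days. Oasl2, Ifit1 and Irf7 changed by 1.77 to 2.36.

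Macrophages are a known minor component of MEF cultures, and their markers were summed in each library. The sum over the 60 listed markers was 816, 247 and 763 FPKM on day 0 and 558, 343 and 605 FPKM on day 2, so the groups overlapped and replicate 2 was lowest on both days. Of 54 tested markers, 10 (18.5%) were called higher, near the 18.7% of all genes, and none lower (median change 0.07, and 11 higher as TPM). The defining markers Adgre1, encoding F4/80, and Csf1r were not called. Adgre1 was 8.80, 1.69 and 7.66 FPKM on day 0 and 5.16, 4.06 and 5.83 FPKM on day 2. In WT, 21 of the markers were called higher on day 2 (median change 0.85), and in Per1-/- 31 (1.37). Of all 14932 genes, 3101 were called higher in each of these genotypes. The marker sums were 355 to 699 FPKM on day 0 and 535 to 792 FPKM on day 2 in WT. In Per1-/- they were 330 to 1556 and 955 to 1808 FPKM, and the days overlapped in both. No marker was called in the comparisons of changes between genotypes given below. The part of macrophages in the changes of cytokine and interferon genes was not tested. In bulk RNA, fewer cells of a type and less RNA per cell cannot be told apart.

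Markers of the other cell types in the dish had the following sums. Epithelial and mesothelial markers went from 221, 141 and 116 FPKM to 17.3, 22.7 and 11.9 FPKM, with 8 of 12 tested genes called lower and none higher. Krt19, a keratin, was 49.9, 25.8 and 34.5 FPKM on day 0 and 2.29, 2.21 and 1.49 FPKM on day 2 (change -4.11, SE 0.31, adjusted p = 1.1e-09). Endothelial markers summed to 33.3, 27.5 and 39.9 FPKM on day 0 and to 17.5, 14.7 and 17.7 FPKM on day 2. Only 10 of the 24 listed endothelial markers were tested. Of these, 5 were called lower and 1, Tek (change 2.74), higher, and 3 and 1 as TPM. Pericyte and smooth muscle markers summed to 143, 139 and 121 FPKM and then to 66.5, 53.7 and 56.1 FPKM. Of the 9 tested, 6 were called lower and 2 higher, and 5 and 2 as TPM. The sums of the 2 days did not overlap for these 3 types, although single markers could go the other way. Schwann and neural crest markers overlapped, at 87.1, 103 and 95.9 FPKM on day 0 and 89.6, 91.9 and 96.4 FPKM on day 2.

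**Figure D3:**
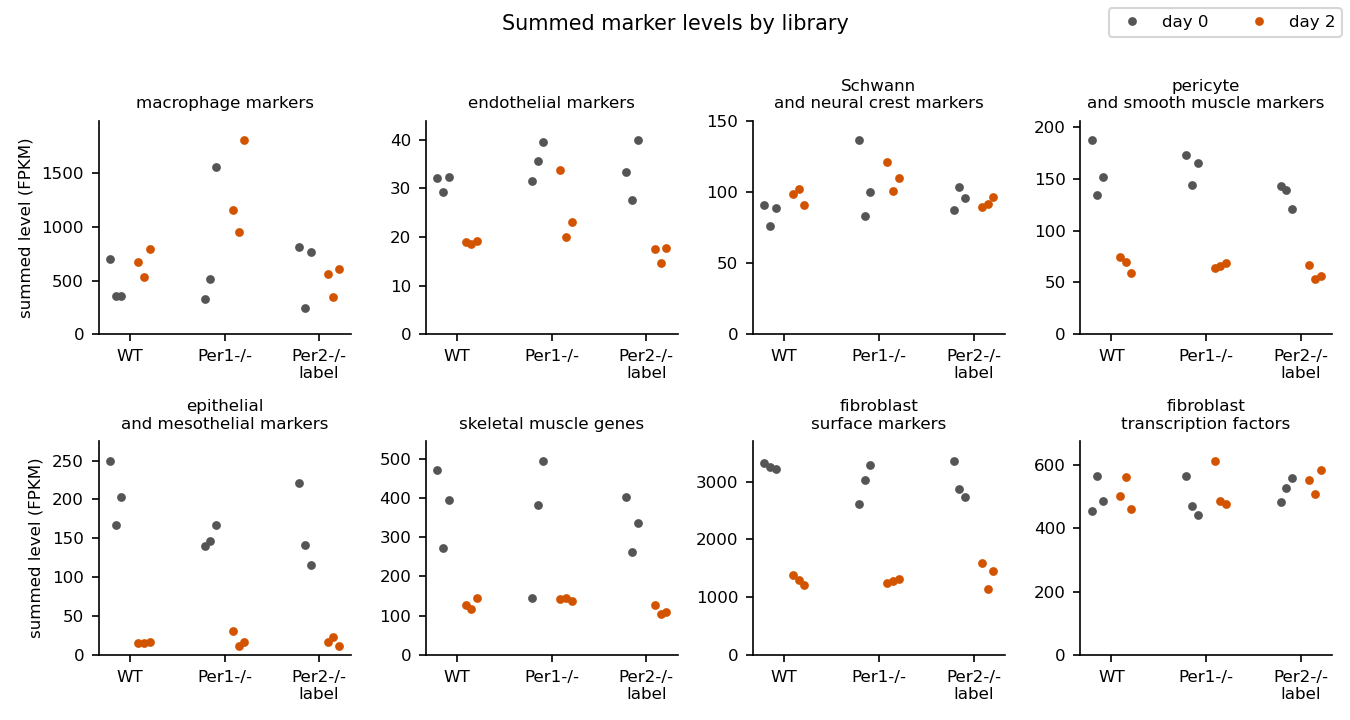
Summed FPKM of marker genes of 8 cell types or programs in each library of day 0 (grey) and day 2 (orange) for WT, Per1-/- and the libraries labelled Per2-/-. In the libraries labelled Per2-/-, the macrophage sums of day 0 (247 to 816 FPKM) and day 2 (343 to 605 FPKM) overlapped, while the epithelial sums (116 to 221 and 11.9 to 22.7 FPKM) were apart.

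Fibroblast genes split between surface proteins and regulators. The surface marker list had 14 of 22 called lower and 2 higher (10 and 3 as TPM), and its sum went from 3364, 2876 and 2733 FPKM to 1597, 1138 and 1458 FPKM. Cd44, the hyaluronan receptor, was 158, 146 and 151 FPKM on day 0 and 17.9, 12.1 and 13.7 FPKM on day 2 (change -3.39, SE 0.18, adjusted p = 1.1e-11). Thy1 was 105, 262 and 137 FPKM on day 0 and 41.3, 32.4 and 33.7 FPKM on day 2 (change -2.13). Fibroblast transcription factors summed to 483, 527 and 559 FPKM on day 0 and 550, 509 and 584 FPKM on day 2, with 6 of 43 called higher and 10 lower (13 and 4 as TPM). The mesenchymal factors Snai2 and Twist1 were not called, with changes of 0.05 and 0.30 (Twist1 was called higher as TPM), and Twist2 was called lower at -1.86.

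Matrix genes went both ways. Among collagens, 13 of 34 were called higher and 4 lower (median 0.31, and 15 and 4 as TPM). Col3a1 was 78.1, 249 and 190 FPKM on day 0 and 591, 817 and 677 FPKM on day 2 (change 2.15, SE 0.35, adjusted p = 2.3e-05), while Col4a1 of basement membranes was 210, 199 and 197 FPKM on day 0 and 116, 94.7 and 85.6 FPKM on day 2 (change -1.04). Among other matrix genes, 12 of 55 were called higher and 20 lower with a median of -0.27. As TPM there were 18 higher and 13 lower with a median of 0.06, below the 0.3125 of all genes as TPM. Tnc, tenascin C, was 361, 460 and 380 FPKM on day 0 and 82.5, 39.7 and 55.8 FPKM on day 2. Lama2, a laminin chain, was higher on day 2 (change 2.66). Matrix proteases and their inhibitors had 9 of 33 called higher and 14 lower with a median of -0.21. As TPM there were 11 higher and 9 lower with a median of 0.11, also below that of all genes. The protease inhibitor Timp1 and the urokinase receptor Plaur changed by -2.85 and -4.06.

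BMP genes contained both a strong increase and a strong decrease. The ligand Bmp7 was 0.325, 0.33 and 0.39 FPKM on day 0 and 26.5, 23.1 and 20.9 FPKM on day 2 (change 5.71, SE 0.39, adjusted p = 2.8e-10). The BMP antagonist Grem1 was 200, 125 and 131 FPKM on day 0 and 19.7, 7.93 and 13.1 FPKM on day 2 (change -3.54, SE 0.43, adjusted p = 6.6e-07). The antagonist Chrd was higher (change 2.18). No day 2 library of these 3 genes fell within the day 0 range. Over the list, 8 of 25 were called higher and 5 lower (median 0.43, and 9 and 5 as TPM).

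Genes of cholesterol synthesis and of glycolysis had more decreases than increases. In cholesterol synthesis and uptake, 18 of 28 were called lower and 1 higher (median -0.81), and 8 lower and 3 higher as TPM. Of 9 cholesterol efflux genes, 2 were called higher and 1 lower (median 0.06, and 4 higher with none lower as TPM), the 2 being Abca1 and Abcg1 at 0.90 and 1.29. Of 31 glycolysis and hypoxia genes, 19 were called lower and 3 higher (median -0.89, and 14 and 3 as TPM). Hk2, hexokinase, was 11.7, 10.4 and 12.05 FPKM on day 0 and 2.46, 1.93 and 2.13 FPKM on day 2 (change -2.34, SE 0.15, adjusted p = 1.3e-10), and the glucose transporter Slc2a1 and Ldha changed by -2.15 and -1.75.

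Iron and antioxidant genes were also called lower more often than higher. Tfrc, the transferrin receptor, was 23.97, 26.4 and 25.4 FPKM on day 0 and 4.46, 3.42 and 4.09 FPKM on day 2 (change -2.64, SE 0.20, adjusted p = 1.6e-09). Of 14 iron genes, 8 were called lower and 1 higher, and 4 and 3 as TPM. Of 27 antioxidant genes, 17 were called lower and none higher (median -0.93, and 13 lower with 3 higher as TPM). Gsto1, a glutathione transferase, was 271, 373 and 284 FPKM on day 0 and 34.9, 23.7 and 28.7 FPKM on day 2 (change -3.41, SE 0.23, adjusted p = 1.8e-10), with no overlap. Nqo1 changed by -1.90. Targets of ATF4 and the unfolded protein response had 14 of 33 called lower and none higher, and 5 lower with 1 higher as TPM. Cathepsin and lysosome genes had 19 of 41 lower and 4 higher, and 8 and 6 as TPM. Of 21 selenoproteins, 8 were called lower and 2 higher, and 6 and 4 as TPM.

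S phase and mitosis genes had few calls. Mki67, a marker of cycling cells, was 25.8, 18.6 and 31.8 FPKM on day 0 and 27.9, 18.7 and 23.8 FPKM on day 2 (change -0.10, adjusted p = 0.74). Of 41 S phase genes 5 were called lower and 1 higher (median -0.31, and 0.01 as TPM). Of 47 mitosis genes 6 were lower and 1 higher (median -0.34, and -0.02 as TPM). The median of all genes as TPM was 0.3125. On FPKM, both counts of lower genes were smaller shares than the 16.8% of all genes called lower. In WT, 4 S phase and 10 mitosis genes were called lower, and in Per1-/- cells 13 and 27. Of all 14932 genes, 2944 were called lower in WT and 2811 in Per1-/-. None of these genes was called in the comparisons of changes between genotypes given below. The CDK inhibitor Cdkn1c was 37.1, 65.0 and 37.8 FPKM on day 0 and 163, 170 and 173 FPKM on day 2 (change 1.90, SE 0.28, adjusted p = 8.2e-06), whereas Cdkn2b changed by -1.29. Their list of CDK inhibitors, cyclin D genes and related regulators had 4 of 25 called higher and 12 lower, and 6 and 8 as TPM.

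Among 22 clock genes, 5 were called higher and 4 lower (median 0.13), near the shares of all genes, and 7 and 2 as TPM. Rora, a nuclear receptor that activates clock genes, changed by 1.21. The repressors Bhlhe40 and Nfil3 were called lower, Bhlhe40 from 16.2, 11.95 and 17.8 FPKM to 3.56, 1.93 and 2.38 FPKM. Per1 was 5.15, 4.89 and 6.64 FPKM on day 0 and 4.58, 4.60 and 4.46 FPKM on day 2 (change -0.27, adjusted p = 0.10), with day 2 below day 0 throughout and no call.

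**Figure D4:**
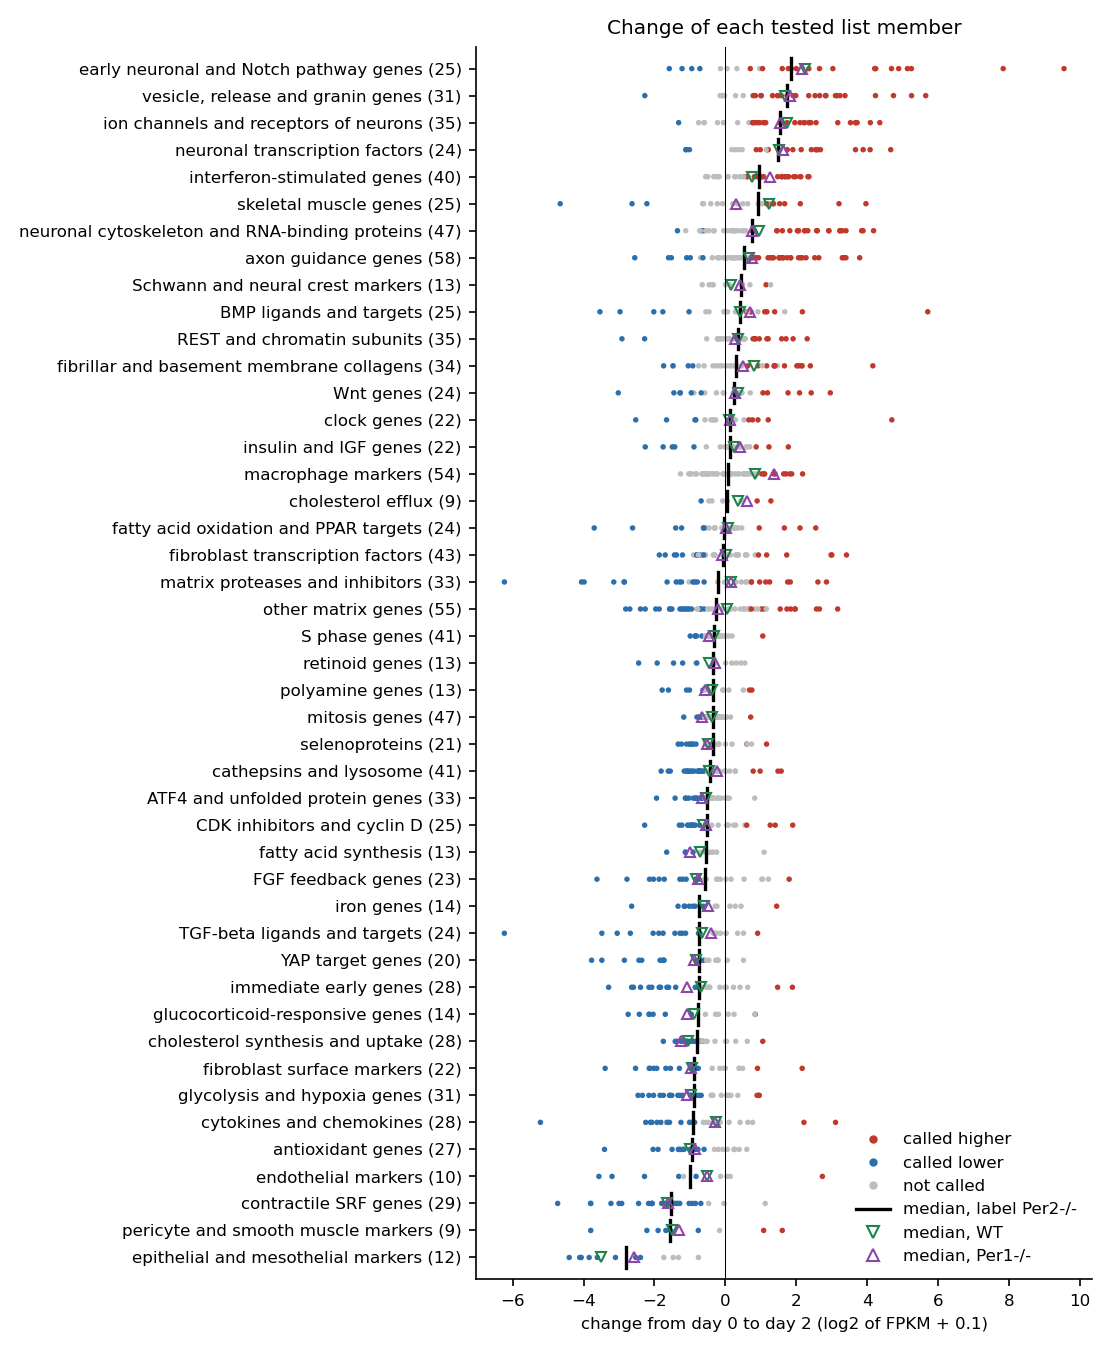
Change from day 0 to day 2 (x, log2 of FPKM + 0.1) of each tested member of the gene lists (rows, with the number tested), coloured by call in the libraries labelled Per2-/-. Black bars are the medians in these libraries and triangles those of WT and Per1-/-. Early neuronal and Notch pathway genes (median 1.86) are at the top and epithelial markers (-2.81) at the bottom. The macrophage median (0.07) lay left of that of WT (0.85) and Per1-/- (1.37), but no gene was called in the comparisons of changes.

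Several further lists had mixed or small counts. Of 24 Wnt genes, 6 were called higher and 6 lower (6 and 4 as TPM). Of 24 genes of fatty acid oxidation, 4 were higher and 6 lower (7 and 3 as TPM), with Fabp3 at -3.70 and Angptl4 at 2.11. None of 13 fatty acid synthesis genes was higher and 4 were lower (1 and 2 as TPM). Of 14 glucocorticoid-responsive genes, 7 were lower and 1 higher (7 and 2 as TPM), Sgk1 and Klf9 among them at -2.74 and -2.43. Insulin and IGF genes had 3 of 22 higher and 5 lower (7 and 4 as TPM). Retinoid genes had 5 of 13 lower and none higher (3 and 2 as TPM), and polyamine genes 5 of 13 lower and 2 higher (4 and 3 as TPM). The neuronal gene Nsg2, found by the rule for the strongest changes, went from 0.0273, 0.0128 and 0.0279 FPKM to 9.88, 14.1 and 10.3 FPKM, and Bche, butyrylcholinesterase, from 0.48, 0.362 and 0.5 FPKM to 20.03, 49.1 and 28.2 FPKM.

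Genes of different structure were called at different rates. Among 1852 tested genes spanning at least 100 kb, 628 (33.9%) were called higher and 260 lower (median 0.287), against 436 (13.7%) higher and 541 lower of 3187 genes under 5 kb (median -0.1574). Transcription factors made up 10.1% of the genes called higher, 3.47% of those called lower and 6.69% of all tested genes. C2H2 zinc finger factors had 151 of 442 called higher and 10 lower (median 0.3654). By contrast, 8 of 18 ETS factors and 11 of 40 bZIP factors were called lower, with 1 and 5 higher. Genes are not independent replicates, and these shares are descriptions. They were counted on FPKM only and not as TPM, although the split of calls depended on the scaling.

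The change of each gene in the libraries labelled Per2-/- was then compared with the change in WT and in Per1-/-, which asked whether the early response differed by genotype. By limma's test of the difference between changes, 0 of 14932 genes (0.0%) were called against WT and 0 (0.0%) against Per1-/-. At an unadjusted p under 0.05 there were 434 and 670 genes, and the smallest adjusted p was 0.147 and 0.461. With voom weights on recovered fragments the counts were also 0. A difference that misses the threshold does not show that the genotypes responded alike. Across genes, which are not independent, the changes correlated with r = 0.9118 to WT and 0.8972 to Per1-/-, and r was 0.9192 between WT and Per1-/-. The SD of the change over genes was 1.0772 in the libraries labelled Per2-/- and 1.1436 in WT.

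Of the genes called higher in the libraries labelled Per2-/-, 2479 (88.8%) were also called higher in WT, which was 79.9% of the 3101 WT calls. Of those called lower, 2242 (89.4%) were also called lower in WT, 76.2% of the 2944 WT calls. Against Per1-/- the shared calls were 2431 higher (87.1%, and 78.4% of its calls) and 2103 lower (83.9% and 74.8%). A single gene was called in opposite directions, the mitochondrial tRNA gene mt-Tv, which is named after its values were seen. Its mean went from 0.805 to 3.44 FPKM in the libraries labelled Per2-/- (change 2.57, adjusted p = 0.017) and from 2.91 FPKM to 0 in WT (change -4.59), and the test of that difference gave an adjusted p of 0.147. That difference was called without Per2-/- day 0 replicate 1 (adjusted p = 0.030) or without WT day 0 replicate 3 (adjusted p = 0.049).

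For genes named above, the changes in the 3 genotypes were as follows. Dll3 changed by 9.56, 9.03 and 9.44 in the libraries labelled Per2-/-, WT and Per1-/-, and Insm1 by 7.84, 7.72 and 7.61. Tubb3 changed by 2.24, 2.22 and 1.47. For Acta2 the changes were -2.997, -2.64 and -2.75. Bmp7 changed by 5.71 against 6.96 in WT and 6.08 in Per1-/-.

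**Figure D5:**
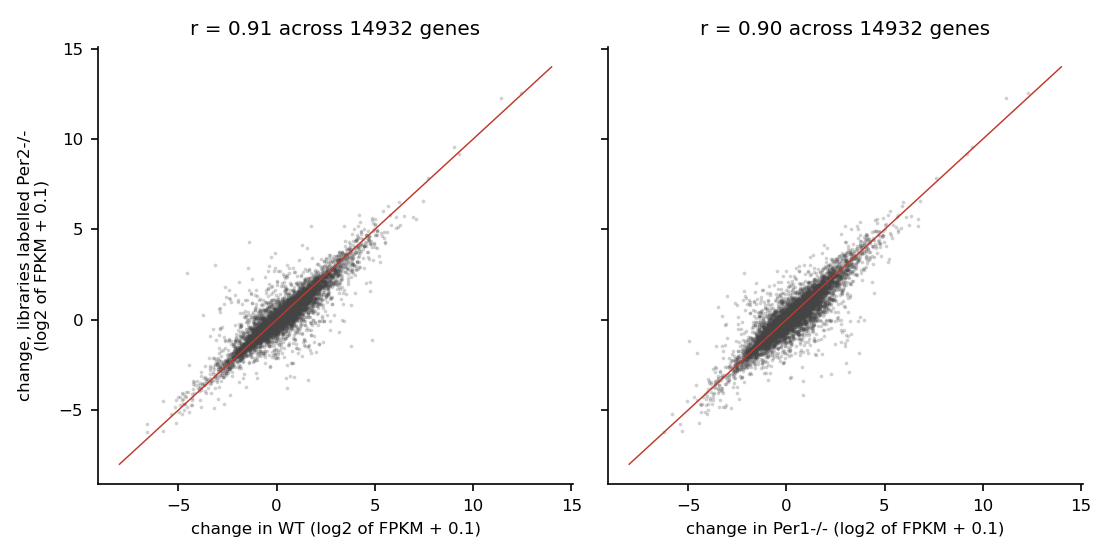
Log2 change from day 0 to day 2 of 14932 genes in the libraries labelled Per2-/- (y) against WT (x, left) and Per1-/- (x, right), 1 point for each gene, with the line of equal change in red. The points follow the line with r = 0.91 and 0.90, and no gene off the line passed the test of the difference.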

How the data were processed

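Bulk RNA-seq of WT, Per1-/-, and Per2-/- labelled MEFs was taken as the FPKM table the authors deposited, with 54532 genes in 27 libraries. According to the study's methods, poly-A RNA was made into nondirectional libraries, reads were aligned to GRCm38 with HISAT2 2.0.5, counted on Ensembl genes with featureCounts 1.5.0-p3 and FPKM was computed from counts and gene length. The deposited FPKM times gene length gave whole fragments for 100.0% of values (tolerance 0.01), and the denominators were proportional to a median-of-ratios size factor over 16100 genes, so the values already carried that scaling. Counts were not the deposited unit, so limma 3.58.1 in R 4.3.3 (trended eBayes) was fitted to log2(FPKM + 0.1) for the 14932 genes whose mean over all libraries reached 0.5 FPKM, with 9 groups of genotype and day sharing the spread and 18 residual degrees of freedom. With 3 libraries against 3, an exact permutation test cannot go below p = 0.1, so none is given for single genes. The code was tested on simulated data.

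The members, gene lists and tests were chosen with earlier results of these data known, so lists are described by counts and medians without a test. Named genes were the Per and reprogramming factor genes, anchors and up to 4 called members with the largest change of each list, the 12 protein-coding genes with the largest change in each direction among those apart in all libraries and averaging 5 FPKM or more, and the 5 most abundant genes of each day, and others are said to be named after their values were seen. Some genes of this rule are not reported here. Groups came from the sample titles. Same-numbered day 0 and day 2 replicates of Per1-/- deviated together (r = 0.2939, 0.2128 and 0.1501, each over 0.1), so there the numbers were read as pairs from the data, and the replicate block is an alternative. Alternatives changed the pseudocount, the filter on low values, the scaling, the weights, the replicate block, the samples in the fit and the fold threshold, or left out 1 library. Exon overlaps were computed on GENCODE vM21. Day 4 libraries entered the fit only.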

Additional observations from a re-analysis of the deposited data

How the results depend on the processing

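The count of 5300 genes called from day 0 to day 2 in the libraries labelled Per2-/- ranged from 4271 with a pseudocount of 1 to 6297 when every gene above 0 was tested, and dropping the fold threshold raised it to 8298. Leaving out 1 library at a time gave 4670 to 5489 calls, of which at least 4524 were the same genes in the same direction. With voom weights on recovered fragments there were 5317 calls, 5204 of them shared. The TPM scaling kept 4058 calls of the same genes and direction among 5896. No named gene that was called had the opposite sign in any alternative, whereas small changes that were not called could change sign, such as that of Adgre1 (0.02, and -0.03 with a pseudocount of 1) or of Mki67 (-0.10, and 0.23 as TPM).

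In the libraries labelled Per2-/-, replicates of the same number deviated together with r = 0.0857, 0.0776 and 0.0641 between day 0 and day 2, each under 0.1, so the numbers were not treated as pairs, although every library correlated best with its own number. In WT r was 0.017, 0.0458 and 0.037, and day 0 replicate 1 correlated best with day 2 replicate 3 (0.0347). The replicate block gave 5462 calls and left 0 in both comparisons of changes. In Per1-/-, where the numbers paired, the block moved the calls from 3101 to 3217 higher and from 2811 to 2898 lower, with 16 S phase and 28 mitosis genes lower and 37 macrophage markers higher, a check added after seeing the data.

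The comparison of changes with WT had 0 calls except for 3 genes with a pseudocount of 0.01 (Otor, Kera and Klhl34), 1 when every gene above 0 was tested, and 0 to 2 when 1 library was left out, 2 without Per2-/- day 0 replicate 1 (mt-Tv and Gm24188) and 1 without WT day 0 replicate 3 (mt-Tv). The comparison with Per1-/- had 0 except for 1 gene when every gene was tested, and 0 to 1 when 1 library was left out (Fosb without Per1-/- day 0 replicate 1). The cause was not tested. The fitted change of genes with 3 fragments or fewer on day 0 depends on the pseudocount and is no bound on it.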
